A study of Homo sapiens with 8 samples.

Results

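The genes described here are 47 genes of phase I metabolism, the set of reactions in which the liver oxidises, reduces or hydrolyses hormones, drugs and dietary compounds. They were listed by symbol, under a rule that uses no measured value, but with earlier results of these data known. Each was matched to its Entrez gene (GeneID) among the 26235 genes counted in HepG2 cells. They comprise 23 cytochromes P450, 11 alcohol and aldehyde dehydrogenases and 13 other enzymes and redox partners, the last class including the acetyltransferases NAT1 and NAT2, which are usually counted to phase II. Of the 47 genes, 34 had enough counts to be tested, among 15460 tested genes in all.

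HepG2, a line derived from a human hepatocellular carcinoma, was kept in phenol red-free medium with charcoal-stripped serum, starved in low serum and treated for 48 h. The Control group received the vehicle dimethyl sulphoxide (DMSO), and the other groups received 1 µM of 17β-estradiol (E2), of PPT, an agonist selective for estrogen receptor alpha, or of DPN, an agonist selective for estrogen receptor beta. All groups were the same line with no stated genetic change, so a compound is the only labelled difference between them. RNA-Seq gave 2 libraries per group, 8 in all, with 25103160 to 29670814 counts each, but nothing given says that replicates came from separate cultures. The study's methods give more samples per treatment than the libraries analysed here. Every p-value below therefore reflects the variation among these libraries alone, which may be technical. Levels are given as CPM, the counts scaled to a common library total by the trimmed mean of M-values. The gene of estrogen receptor alpha, ESR1 (GeneID 2099), had 0 counts in all 8 libraries, where 3 counts would be 0.0135 CPM, and ESR2 (GeneID 2100), that of estrogen receptor beta, did not exceed 0.258 CPM in any library. The transcripts of the receptors that PPT and DPN are selective for were therefore at or near the counting floor in these cells.

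P450s are heme proteins that insert an oxygen atom into their substrates, and those of the endoplasmic reticulum take their electrons from the reductase POR, in part through cytochrome b5. Alcohol dehydrogenases turn alcohols into aldehydes, and aldehyde dehydrogenases turn these into acids, which clears ethanol and makes retinoic acid from retinol. In hepatocytes these enzymes are abundant, while HepG2 is known for low levels of many drug-metabolising P450s. PPT and DPN are nonsteroidal compounds that carry phenol groups, whereas E2 is a steroid.

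The 250 bases before the start site of 6 genes are shown first: the 5 genes that were lower with E2 and higher with both PPT and DPN, and FMO5, which was higher with E2 and lower with PPT. They are RefSeq promoters of GRCh38.p14, written 5′ to 3′ on the gene's strand and placed by RefSeq's start sites, which can lie inside the wider GENCODE gene spans given later, for CYP4F11 (chr19:15934868-15935117), ADH4 (chr4:99144298-99144547), ALDH1A1 (chr9:72953054-72953303), AOX1 (chr2:200585764-200586013), MAOA (chrX:43656049-43656298) and FMO5 (chr1:147225340-147225589). Capitals mark matches on either strand. The antioxidant response element core was searched as TGACNNNGC. The HNF1 site of liver promoters was searched as GTTAAT. The letters TATAAA stood for a TATA box. The CCAAT box was searched by the letters of its name. GC boxes, the binding letters of Sp1, were searched with GGGCGG.
CYP4F11: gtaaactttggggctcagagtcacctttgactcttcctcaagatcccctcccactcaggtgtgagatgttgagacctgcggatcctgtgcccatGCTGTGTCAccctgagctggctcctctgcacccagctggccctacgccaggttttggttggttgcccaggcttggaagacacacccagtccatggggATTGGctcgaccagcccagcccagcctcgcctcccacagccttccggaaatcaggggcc
ADH4: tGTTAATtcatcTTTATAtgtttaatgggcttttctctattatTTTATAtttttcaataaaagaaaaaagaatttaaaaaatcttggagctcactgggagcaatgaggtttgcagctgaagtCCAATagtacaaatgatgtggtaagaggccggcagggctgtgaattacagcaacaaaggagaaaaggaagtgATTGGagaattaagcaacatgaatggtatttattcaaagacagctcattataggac
ALDH1A1: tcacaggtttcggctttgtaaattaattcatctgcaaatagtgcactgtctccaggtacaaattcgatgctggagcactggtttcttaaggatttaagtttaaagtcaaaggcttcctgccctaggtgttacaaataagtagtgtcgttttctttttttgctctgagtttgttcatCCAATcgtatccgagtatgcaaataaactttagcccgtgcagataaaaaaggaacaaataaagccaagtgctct
AOX1: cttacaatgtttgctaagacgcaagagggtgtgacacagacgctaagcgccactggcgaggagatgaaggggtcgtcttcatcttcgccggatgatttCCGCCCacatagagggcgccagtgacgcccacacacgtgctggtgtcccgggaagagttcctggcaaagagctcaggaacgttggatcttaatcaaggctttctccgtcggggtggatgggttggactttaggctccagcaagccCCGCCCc
MAOA: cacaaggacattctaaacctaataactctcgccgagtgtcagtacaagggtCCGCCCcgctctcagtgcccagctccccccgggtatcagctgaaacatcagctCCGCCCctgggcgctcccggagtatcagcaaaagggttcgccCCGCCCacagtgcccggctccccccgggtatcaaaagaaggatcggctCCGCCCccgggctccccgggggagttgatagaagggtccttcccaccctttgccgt
FMO5: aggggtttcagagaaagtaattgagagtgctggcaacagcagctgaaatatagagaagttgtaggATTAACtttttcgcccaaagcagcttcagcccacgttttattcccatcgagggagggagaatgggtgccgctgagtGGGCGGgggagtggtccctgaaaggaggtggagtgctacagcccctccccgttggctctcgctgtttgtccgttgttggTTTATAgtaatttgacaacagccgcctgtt

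The windows share no single motif. MAOA held 4 GC boxes and AOX1 held 2, ADH4 and ALDH1A1 held CCAAT boxes and no GC box, and the only antioxidant response element core of the 6 was in CYP4F11, starting 156 bases before its start site. The GC content ran from 34% in ADH4 to 63.2% in MAOA. RefSeq windows were matched for 36 of the 47 genes. Among these, CCAAT boxes stood in 55.6% against 33.0% of the 27305 RefSeq windows, the HNF1 letters in 16.7% against 6.26%, TATA boxes in 22.2% against 11.2%, GC boxes in 36.1% against 42.2% and the antioxidant core in 8.33% against 11.1%. The letters GCGTG, the core bound by the aryl hydrocarbon receptor, stood in 19.4% against 31.9%. The median GC content was 51.2% in the 36 windows and 57.6% in all windows, and its part in these shares was not tested. The full palindromic estrogen response element was found in 0 of the 36 windows and in 0.044% of all windows, which says only that these letters were not in these 250 bases.

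Transcript levels spanned several orders of magnitude, as the plot of levels per kilobase shows. In the control libraries 21 of the 47 genes averaged 10 CPM or more, 7 lay between 1 and 10 CPM and 19 were under 1 CPM. Per kilobase of transcript, the control level was led by ALDH1A1 at 193 CPM per kb, the carboxylesterase CES1 at 169, POR at 152, ADH5 at 137 and FMO5 at 80.9. The P450s lay lower on the same scale, and the highest of them in the controls, CYP4F11, stood at 11.2 CPM per kb, followed by CYP4F12 at 8.69 and CYP2W1 at 4.49. The P450 genes best known from hepatocytes were near the floor, with CYP3A4 at 0.0783, CYP2E1 at 0.0193 and CYP2C8 at 0.0516 CPM per kb. CYP2C19 had 0 counts in all 8 libraries, which allows up to 0.0135 CPM.

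**Figure D1:**
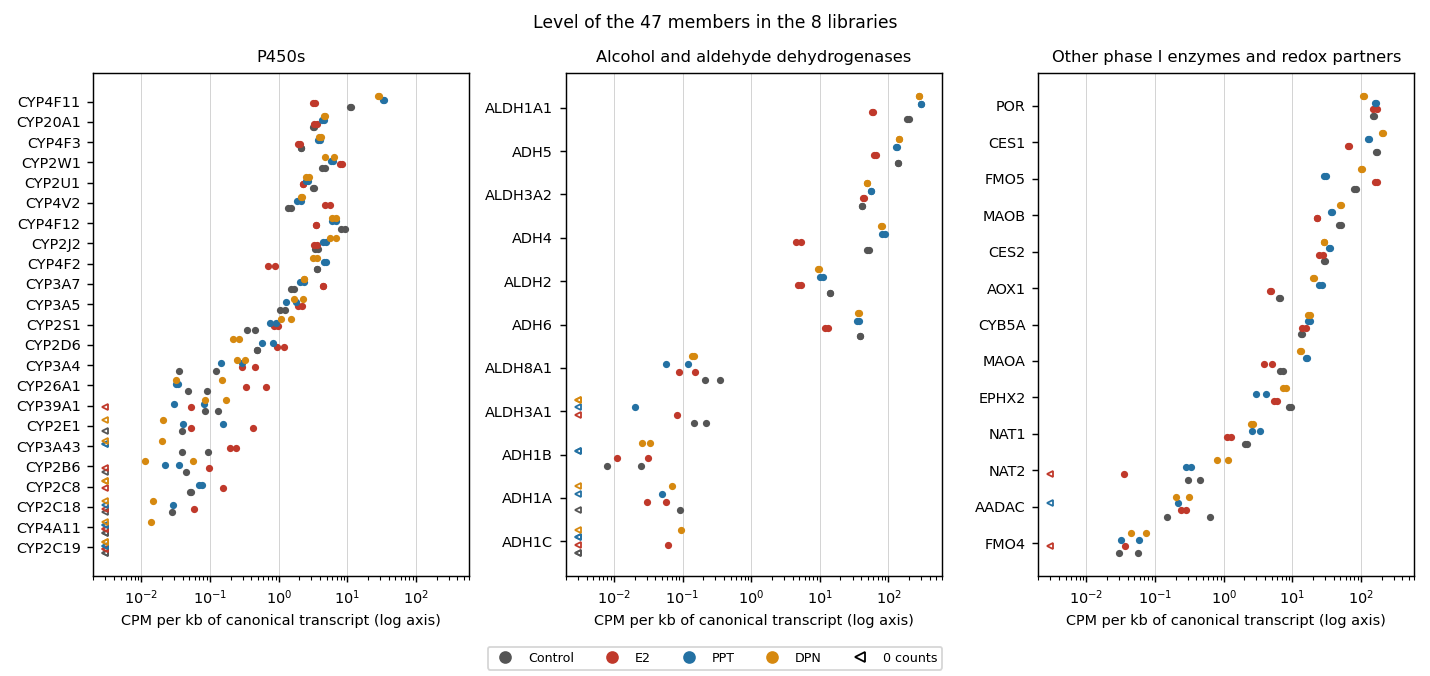
Level of each of the 47 genes in the 8 libraries, as CPM per kilobase of the canonical transcript on a log axis, with 1 point per library coloured by group and open triangles at the left edge for libraries with 0 counts. ALDH1A1, CES1 and POR lie above 100 CPM per kb in the control libraries, and the 13 untested genes lie at the bottom of their panels.

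Hepatocyte markers were all present, the lowest of 9 at 81.3 CPM in any library, and their summed level was 54085 to 55371 CPM in the control libraries, 79326 to 83571 with E2, 37512 to 41023 with PPT and 38081 to 38996 with DPN. Of these 9 markers 6 rose and 2 fell with E2, 2 rose and 6 fell with PPT, and 1 rose and 7 fell with DPN. Of 15 markers of stromal, endothelial and blood cells, 4 or 5 per group had 0 counts in both libraries, and the summed level was 52.2 to 52.7 CPM in controls, 90.0 to 91.3 with E2, 38.2 to 40.5 with PPT and 41.1 to 44.2 with DPN. Of the 7 that were tested, 5 rose and 2 fell with E2. CD68, a macrophage marker, supplied 28 and 30.9 CPM of the sum with E2, against 9.22 and 9.01 CPM in the controls. CDH5 and VWF, markers of endothelium, reached 3.67 and 3.2 CPM and 3.13 and 2.99 CPM with E2. Their raw counts were 11 and 29 in the controls and 158 and 141 with E2. PECAM1, also a marker of endothelium, and CD14 fell, from 210 and 354 raw counts in the controls to 51 and 70 with E2. The part of these shifts in the results below was not tested, and in bulk libraries fewer cells of a kind and less RNA per cell cannot be told apart.

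With E2 the phase I genes fell more often than they rose. Of the 34 tested genes 9 rose, 17 fell and 8 did not pass at an adjusted p under 0.05 in edgeR's quasi-likelihood F test, and the median log2 fold change was -0.48, against -0.00 over all tested genes. The background was 30.8% of all tested genes higher and 31.8% lower with E2. Genes with an adjusted p under 0.01 and a log2 fold change above 1.5 in size are said to be called, the thresholds of the study. With E2 3 genes were called higher, CYP3A4, CYP4V2 and CYP26A1, where 7.15% of all genes were, and 6 were called lower, CYP4F2, CYP4F11, ADH4, ADH6, ALDH1A1 and NAT2, where 2.98% were. CYP26A1 met the filter on low counts only through its E2 libraries. The classes differed in their counts. Of 15 tested P450s 8 rose and 4 fell, of 7 dehydrogenases 5 fell and the other 2 did not pass, and of 12 others 1 rose and 8 fell.

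More phase I genes rose than fell with PPT and with DPN. With PPT 14 of the 34 rose, 8 fell and 12 did not pass, with a median log2 fold change of 0.39 against 0.01 over all genes, beside a background of 22.9% higher and 22.8% lower. The 2 genes called with PPT, CYP4F11 and AOX1, were higher, where 1.90% of all genes were called higher and 2.86% lower. With DPN 18 rose, 3 fell and 13 did not pass, with a median of 0.32 against -0.00 over all genes, beside a background of 24.4% higher and 24.1% lower. The 2 genes called with DPN, CYP2S1 and AOX1, were higher, where 1.92% of all genes were called higher and 2.02% lower. The count lower with PPT was 5 without control replicate 1 or PPT replicate 1, and that lower with DPN was 5 without either E2 library and 6 without either PPT library, whose values enter the shared estimate of spread. The 3 compounds share the same 2 control libraries, so their counts against the control are not independent of each other.

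**Figure D2:**
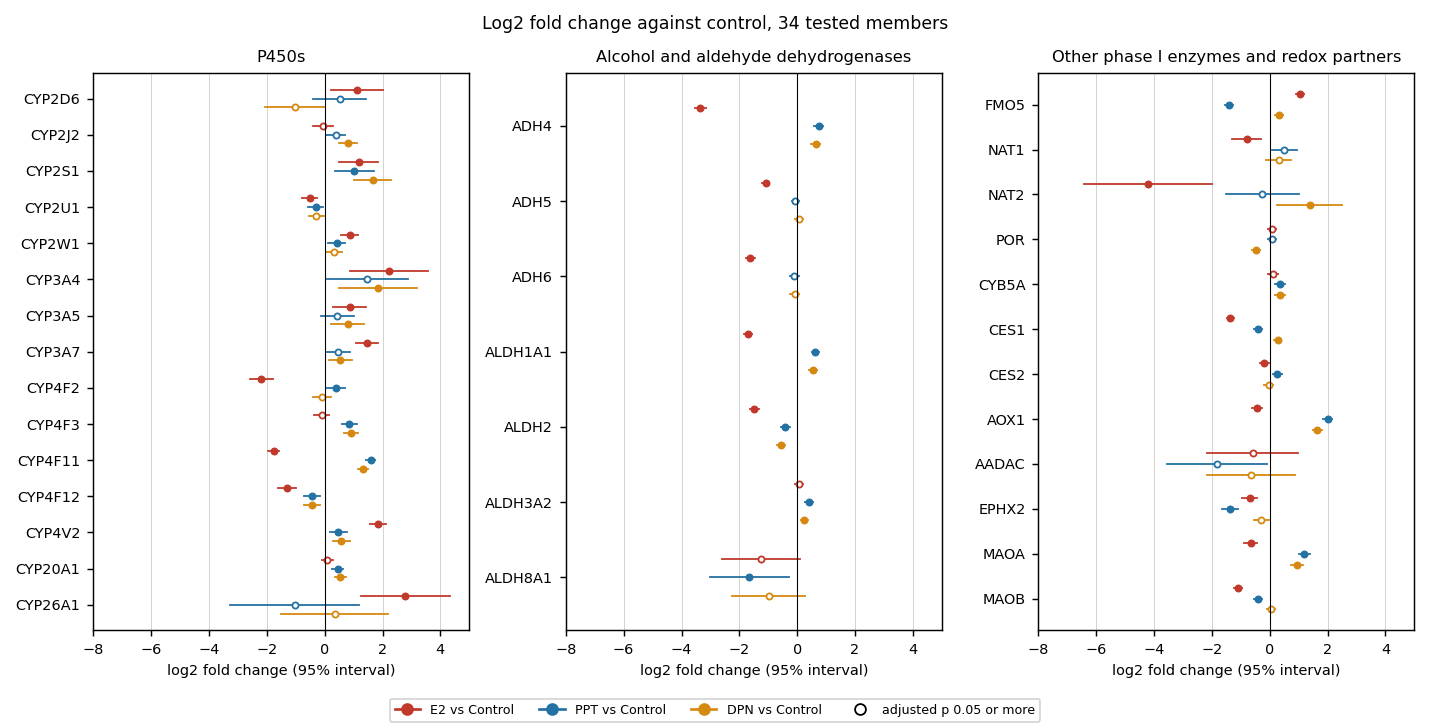
Log2 fold change against the control libraries for the 34 tested genes in 3 classes, with 95% intervals, coloured by compound, and open points for an adjusted p of 0.05 or more. The E2 points of ADH4 at -3.35 and ALDH1A1 at -1.71 lie left of 0 while their PPT and DPN points lie right of it, and NAT2, CYP26A1 and AADAC have the widest intervals.

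The 47 genes together took 2664 and 2641 CPM in the control libraries, 1846 and 1832 with E2, 2924 and 3015 with PPT and 3084 and 3094 with DPN. The E2 libraries lay below the other 6, and the PPT and DPN libraries lay above the controls. The net drop with E2 sat mostly in the dehydrogenases. Their sum was 1283 and 1250.1 CPM in controls and 544 and 552 with E2. With PPT it was 1525 and 1569, and with DPN 1503 and 1501. The sum of the other enzymes and redox partners was 1231 and 1242 CPM in controls and 1164 and 1128 with E2. Within it, mean sums fell from 440 to 219 CPM in the hydrolases and from 187 to 100 in the oxidases. They rose from 189 to 385 CPM in the flavin monooxygenases and from 416 to 439 in the electron donors. The P450 sum was 151 and 149 CPM in controls and 137 and 152 with E2, which overlap, but 247 and 248 with PPT and 232 and 238 with DPN. These sums are descriptions and were not tested.

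The CYP4F genes, which hydroxylate fatty acids, leukotriene B4 and the side chain of vitamin K, did not move together. With E2 3 of the 4 fell, and with PPT and with DPN CYP4F3 and CYP4F11 rose while CYP4F12 fell. CYP4F11 (GeneID 57834, chr19:15912367-15934867 on GRCh38), the most abundant P450 per kilobase in the control libraries, stood at 33.9 and 34.7 CPM in the control libraries, 9.7 and 10.4 with E2, 105 and 101 with PPT and 84.2 and 87.2 with DPN. Both E2 libraries were below, and all PPT and DPN libraries above, both controls. It fell 3.4-fold with E2 (log2 fold change -1.77 ± 0.10, SE; adjusted p = 5.83e-15) and rose 3.02-fold with PPT (1.59 ± 0.08; adjusted p = 3.09e-15) and 2.5-fold with DPN (1.32 ± 0.08; adjusted p = 1.83e-13). CYP4F2 (GeneID 8529, chr19:15878023-15898077), the vitamin K1 hydroxylase of liver, stood at 8.61 and 8.44 CPM in the control libraries, 1.65 and 2.06 with E2, 11.6 and 10.7 with PPT and 7.52 and 8.45 with DPN. The E2 libraries were the lowest and the PPT libraries the highest, and the DPN libraries overlapped the controls. CYP4F2 fell 4.57-fold with E2 (-2.19 ± 0.20; adjusted p = 1.99e-10), while its rise with PPT was 0.39 ± 0.15 on the log2 scale and no longer passed with DESeq2 (adjusted p = 0.105), with upper-quartile scaling (0.0501) and when either PPT library or either control library was left out (0.0636 to 0.173).

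CYP4F3 (GeneID 4051), which hydroxylates leukotriene B4, stood at 10.7 and 10.8 CPM in the control libraries, 9.75 and 10.3 with E2, 19.9 and 19.1 with PPT and 21 and 19.4 with DPN. Its PPT and DPN libraries lay clear above the controls, and its E2 libraries lay just under them with a log2 fold change that did not pass (-0.10 ± 0.13, 95% interval -0.36 to 0.16). CYP4F12 (GeneID 66002) stood at 15.9 and 13.9 CPM in the control libraries, 6.08 and 6.02 with E2, 10.3 and 11.7 with PPT and 11.8 and 10.3 with DPN, so all 6 treated libraries were below both controls. It fell with all 3 compounds, 2.46-fold with E2, 1.35-fold with PPT and 1.35-fold with DPN (log2 fold changes -1.30 ± 0.15, -0.43 ± 0.14 and -0.43 ± 0.14). With PPT it no longer passed without control replicate 1 or PPT replicate 1 (adjusted p 0.152 and 0.103), and with DPN without control replicate 1 or DPN replicate 2 (0.144 and 0.118). The 4 CYP4F genes lie together on chromosome 19, and reads can be shared between them. Of the 50-base windows of CYP4F2, 17.6% also occur in CYP4F3, whereas CYP4F11 shares 1.03% with any other gene. CYP4V2 (GeneID 285440), a fatty acid hydroxylase of the eye and other tissues, went the other way with E2, from 6.93 and 6.44 CPM in controls to 21.8 and 26.2 CPM with E2, 9.89 and 8.64 with PPT and 10.3 and 9.69 with DPN. It rose with all 3 compounds, 3.59-fold with E2 (1.84 ± 0.14; adjusted p = 7.85e-12) and by 0.47 ± 0.15 and 0.58 ± 0.14 on the log2 scale with PPT and DPN, but with PPT it did not pass without control replicate 2 or PPT replicate 1 (adjusted p 0.0849 and 0.0912). CYP4A11, a fatty acid hydroxylase of liver and kidney, had 1 count in all libraries together.

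**Figure D3:**
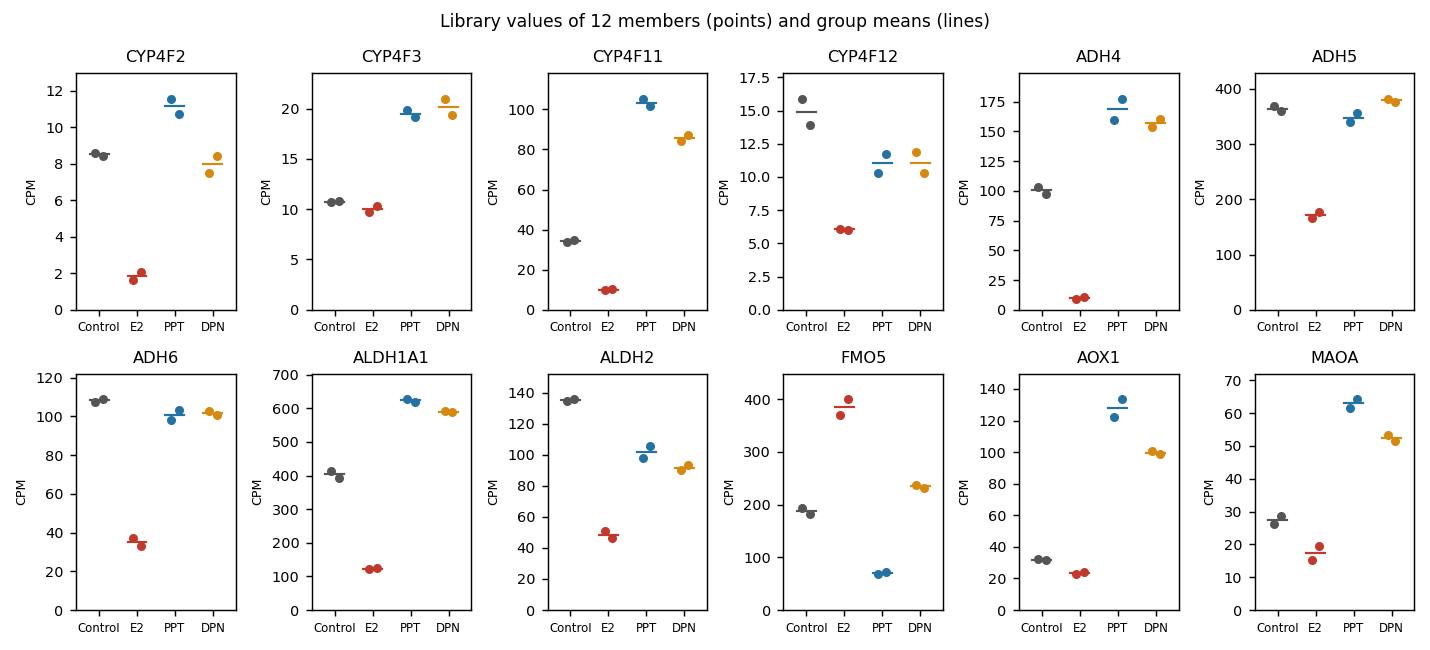
CPM of 12 phase I genes by group, with 1 point per library, a line at the mean of the 2 libraries and axes that start at 0. The E2 libraries of CYP4F11, ADH4, ADH5, ADH6, ALDH1A1 and ALDH2 lie below all others, and FMO5 is high with E2 at 369.9 and 401 CPM and low with PPT at 67.8 and 73.1 CPM.

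All 3 tested CYP3 genes, whose products oxidise steroids and many drugs, rose with E2 and with DPN and did not pass with PPT. None of the 3 passed for DPN against PPT. With PPT the log2 fold changes of CYP3A7 and CYP3A4 were 0.46 ± 0.19 and 1.47 ± 0.68 (adjusted p 0.0538 and 0.0779). CYP3A7 (GeneID 1551), the fetal form, stood at 3.45 and 3.19 CPM in the control libraries, 9.17 and 9.1 with E2, 4.29 and 4.85 with PPT and 4.88 and 4.81 with DPN. Its 2 E2 libraries were the highest and the controls the lowest, and it rose 2.75-fold with E2 (1.46 ± 0.19; adjusted p = 1.64e-07). Its rise with DPN (0.55 ± 0.19; adjusted p = 0.021) did not pass without any 1 of the control or DPN libraries (adjusted p 0.0564 to 0.131). Of its 50-base windows 71.8% also lie in the readthrough transcript CYP3A7-CYP3A51P, so reads may have been split between these annotations. Of the windows of CYP3A7 8.62% also occur in CYP3A4, and of those of CYP3A4 6.41% also occur in CYP3A7. CYP3A7 had 201 counts in the controls and 421 with E2, against 13 and 47 for CYP3A4. How many counts of CYP3A4 came from reads shared with CYP3A7 was not tested. CYP3A5 (GeneID 1577) went from 1.81 and 2.1 CPM in controls to 3.31 and 3.79 with E2, 2.16 and 3.11 with PPT and 2.91 and 3.85 with DPN. The log2 fold changes were 0.86 ± 0.28, 0.44 ± 0.28 (not passed) and 0.79 ± 0.28. The rise with E2 did not pass without control replicate 1 or E2 replicate 2 (adjusted p 0.0700 and 0.0693), nor that with DPN without control replicate 1 or DPN replicate 2 (0.116 and 0.175). CYP3A4 (GeneID 1576), the main drug-metabolising P450 of adult liver, had only 141 counts in the 8 libraries and stood at 0.0967 and 0.339 CPM in the control libraries, 1.25 and 0.8 with E2, 0.403 and 0.803 with PPT and 0.693 and 0.893 with DPN. CYP3A43, the other CYP3A member, was untested at 25 counts in all. For CYP3A4 both E2 libraries lay above both controls, though the 2 controls themselves differed more than 3-fold. The rise with E2 was 2.22 ± 0.66 on the log2 scale (adjusted p = 0.00463). It did not pass without control replicate 1 (1.58 at adjusted p 0.0863) or without E2 replicate 1 (1.86 at 0.0657), and the rise with DPN (1.86 ± 0.66; adjusted p = 0.0211) did not pass without control replicate 1 or DPN replicate 2 (adjusted p 0.224 and 0.111).

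In the CYP2 family, which acts on drugs, fatty acids and retinoids, 3 of 5 tested genes rose and 1 fell with E2. CYP2S1 (GeneID 29785), a P450 of epithelia that acts on retinoids, was called with DPN and stood at 1.19 and 0.915 CPM in the control libraries, 2.55 and 2.23 with E2, 1.94 and 2.38 with PPT and 2.81 and 3.92 with DPN. All 6 treated libraries were above both controls. It rose by 1.67 ± 0.31 on the log2 scale with DPN (adjusted p = 6.91e-05), by 1.17 ± 0.33 with E2 and by 1.03 ± 0.32 with PPT, but with PPT it did not pass without control replicate 2 or PPT replicate 2 (adjusted p 0.0987 and 0.0812). CYP2U1 (GeneID 113612), a fatty acid hydroxylase, stood at 15.6 and 15 CPM in the control libraries, 10.6 and 10.8 with E2, 11.9 and 12.9 with PPT and 11.9 and 13.1 with DPN. Every treated library was below both controls. It fell by 0.52 ± 0.13 on the log2 scale with E2 and by 0.31 ± 0.12 with PPT, where it no longer passed without any 1 of the control or PPT libraries (adjusted p 0.0622 to 0.201), with DESeq2 (0.0736) or without the filter on low counts (0.0585), and with DPN it did not pass (-0.30 ± 0.12). CYP2W1 (GeneID 54905), a P450 known from fetal gut and tumours, stood at 10.9 and 10 CPM in the control libraries, 18.3 and 19.7 with E2, 13.6 and 14.2 with PPT and 11.1 and 15 with DPN. Every treated library was above both controls, by the smallest margin in DPN replicate 1. Its rise was 0.86 ± 0.14 with E2 and 0.41 ± 0.14 with PPT, the latter not passing without control replicate 2 or PPT replicate 2 (adjusted p 0.127 and 0.0687), and 0.32 ± 0.14 with DPN did not pass.

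CYP2J2 (GeneID 1573), the arachidonic acid epoxygenase, stood at 6.93 and 6.4 CPM in the control libraries, 6.08 and 6.74 with E2, 9.16 and 8.27 with PPT and 12.9 and 10.4 with DPN. The DPN libraries were the highest, and the gene passed against the control with DPN (0.80 ± 0.16; adjusted p = 0.00011) and not with E2 or PPT (-0.06 ± 0.17 and 0.38 ± 0.16). CYP2D6 (GeneID 1565), which oxidises many psychiatric and cardiac drugs, stood at 0.774 and 0.779 CPM in the control libraries, 1.52 and 1.89 with E2, 0.916 and 1.31 with PPT and 0.416 and 0.344 with DPN. It was highest in the E2 libraries and lowest in the DPN libraries, and it rose with E2 by 1.13 ± 0.44 (adjusted p = 0.0264), but did not pass without either control, without E2 replicate 2 (adjusted p 0.103 to 0.152) or with library size scaling (0.0695). As 38.8% of its 50-base windows also occur in CYP2D7, its reads cannot be assigned to it with certainty. The other 5 CYP2 members, CYP2B6, CYP2C8, CYP2C18, CYP2C19 and CYP2E1, were too low to test. CYP2E1, the ethanol-inducible P450, had 2 counts in the controls and 19 with E2, a ratio of 12.5 with a 95% counting interval of 3.01 to 110, but 0.0894 and 0.716 CPM in the 2 E2 libraries shows that 1 of them supplied most of these counts.

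CYP26A1 (GeneID 1592), which degrades retinoic acid, stood at 0.193 and 0.102 CPM in the control libraries, 0.716 and 1.39 with E2, 0.0733 and 0.067 with PPT and 0.312 and 0.0687 with DPN. The E2 libraries were the highest of the 8 at a level that rests on 73 counts in all. CYP26A1 met the filter on low counts only through these libraries, with 16 and 33 counts, so it was tested because it was high with E2. It rose 6.94-fold with E2 (2.79 ± 0.74; adjusted p = 0.002), and without E2 replicate 2 the rise was 2.23 and did not pass (adjusted p = 0.0722). Of its 50-base windows 33.99% also occur in an annotation without a gene symbol. CYP20A1 (GeneID 57404), an orphan P450 with no known substrate, stood at 33.1 and 34.9 CPM in the control libraries, 34 and 38.5 with E2, 45.4 and 47.8 with PPT and 48.5 and 50.7 with DPN. Its PPT and DPN libraries lay above all 4 others, and it rose by 0.45 ± 0.09 with PPT and 0.54 ± 0.09 with DPN. CYP39A1, an oxysterol hydroxylase of bile acid synthesis, was untested at 45 counts in all. It had 16 counts in the controls and 3 with E2, a ratio of 0.246 with a counting interval of 0.0460 to 0.860.

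The alcohol dehydrogenase genes lie side by side on chromosome 4, and all 3 that could be tested fell with E2. ADH4 (GeneID 127, chr4:99123657-99157792), which oxidises retinol and ethanol, stood at 103 and 97.7 CPM in the control libraries, 9.03 and 10.6 with E2, 159.8 and 178 with PPT and 154 and 160.2 with DPN. The 2 E2 libraries were about an order of magnitude below the controls, and the PPT and DPN libraries were all above them. ADH4 fell 10.2-fold with E2 (-3.35 ± 0.09; adjusted p = 5.37e-21) and rose 1.68-fold with PPT (0.75 ± 0.07; adjusted p = 3.15e-09) and 1.56-fold with DPN (0.64 ± 0.07; adjusted p = 4.83e-08). ADH6 (GeneID 130, chr4:99202638-99219537), a class V enzyme of liver, stood at 107 and 109 CPM in the control libraries, 37.4 and 33.1 with E2, 98.1 and 103 with PPT and 103 and 100.4 with DPN. The E2 libraries lay far below the rest, and the PPT and DPN libraries lay slightly under the controls. ADH6 fell 3.07-fold with E2 (-1.62 ± 0.08; adjusted p = 6.77e-16), and the differences with PPT and DPN did not pass (-0.10 ± 0.07 and -0.09 ± 0.07).

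ADH5 (GeneID 128, chr4:99070978-99088801), the glutathione-dependent formaldehyde dehydrogenase and the most abundant alcohol dehydrogenase per kilobase, stood at 369 and 359 CPM in the control libraries, 166 and 176 with E2, 339 and 356 with PPT and 382 and 376 with DPN. It fell 2.13-fold with E2 (-1.09 ± 0.06; adjusted p = 4.36e-14) and did not pass with PPT (95% interval -0.20 to 0.06) or DPN (-0.07 to 0.19). Of its 50-base windows 10.1% also occur in the pseudogene ADH5P4. The 3 classical ethanol-oxidising genes ADH1A, ADH1B and ADH1C had 12, 15 and 6 counts in all libraries together and were not tested.

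Of the aldehyde dehydrogenases, ALDH1A1 (GeneID 216, chr9:72900671-73080442), which makes retinoic acid from retinal, had the highest control level per kilobase of all 47 genes and stood at 414 and 394 CPM in the control libraries, 122 and 124 with E2, 628 and 620.1 with PPT and 592 and 588 with DPN. The groups did not overlap, with E2 lowest, then the controls, then DPN, then PPT. It fell 3.27-fold with E2 (-1.71 ± 0.06; adjusted p = 2.38e-18) and rose 1.55-fold with PPT (0.63 ± 0.06; adjusted p = 2.15e-09) and 1.46-fold with DPN (0.55 ± 0.06; adjusted p = 2.64e-08). ALDH2 (GeneID 217), the mitochondrial enzyme that clears acetaldehyde, stood at 135 and 136 CPM in the control libraries, 50.8 and 46.2 with E2, 97.6 and 106 with PPT and 89.9 and 93.2 with DPN. Every treated library was below both controls, and those of E2 were the lowest. It fell 2.79-fold with E2 (adjusted p = 2.09e-15), 1.33-fold with PPT (adjusted p = 3.24e-05) and 1.48-fold with DPN (adjusted p = 3.05e-07). ALDH3A2 (GeneID 224), the fatty aldehyde dehydrogenase, stood at 153 and 154 CPM in the control libraries, 159 and 161 with E2, 203 and 206 with PPT and 181 and 182 with DPN. It rose by 0.41 ± 0.06 with PPT and 0.25 ± 0.06 with DPN, and did not pass with E2 (0.06 ± 0.06).

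The remaining pair of aldehyde dehydrogenases was scarce. ALDH8A1, which acts on metabolites of tryptophan, had 92 counts in all and stood at 0.903 and 0.542 CPM in the control libraries, 0.224 and 0.379 with E2, 0.147 and 0.301 with PPT and 0.346 and 0.378 with DPN. It passed with PPT (-1.66 ± 0.67; adjusted p = 0.0432), but did not pass without any 1 of the 8 libraries (adjusted p 0.0595 to 0.328), with DESeq2 (0.0924) or without the filter (0.0883). ALDH3A1, which detoxifies lipid aldehydes, was untested with 18 counts in the control libraries, 3 with E2, 1 with PPT and 0 with DPN. Set at a floor of 3 counts over the group, the scaled DPN level would be 5.75-fold below the control, with the control counts taken as exact. The ratio to control was 0.219 with E2 (counting interval 0.0413 to 0.749), 0.0588 with PPT (0.00141 to 0.373) and 0 with DPN (0 to 0.237). These intervals cover counting error only.

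FMO5 (GeneID 2330, chr1:147175351-147243050), a flavin monooxygenase that inserts oxygen into ketones, was the only member that rose with E2 and fell with PPT. It stood at 194 and 183 CPM in the control libraries, 369.9 and 401 with E2, 67.8 and 73.1 with PPT and 238 and 231 with DPN. The groups did not overlap, with PPT lowest and E2 highest. FMO5 rose 2.04-fold with E2 (1.03 ± 0.07; adjusted p = 3.71e-13), fell 2.67-fold with PPT (-1.42 ± 0.07; adjusted p = 2.28e-15) and rose by 0.32 ± 0.07 on the log2 scale with DPN (adjusted p = 0.000286). FMO4, its relative, had 22 counts in all and was not tested.

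Of the electron donors of the P450s, POR fell with DPN, and CYB5A rose with PPT and DPN. POR (GeneID 5447), the reductase, stood at 361 and 384 CPM in the control libraries, 415 and 368 with E2, 388 and 403 with PPT and 266 and 274 with DPN. Only the DPN libraries lay below the controls, and POR fell with DPN (-0.47 ± 0.07; adjusted p = 1.77e-06), while the intervals with E2 (-0.06 to 0.21) and PPT (-0.05 to 0.22) included 0. CYB5A (GeneID 1528), cytochrome b5, went from 43.4 and 44.5 CPM in controls to 53.8 and 57.7 with PPT and 57.5 and 55.2 with DPN, rises of 0.34 ± 0.09 and 0.36 ± 0.09. With E2 it was 51.2 and 44.1 CPM, which overlapped the controls.

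Of the oxidases, AOX1 (GeneID 316, chr2:200586014-200677064), the molybdenum-containing aldehyde oxidase, stood at 32.2 and 31.6 CPM in the control libraries, 23 and 23.8 with E2, 122 and 134 with PPT and 100.5 and 98.7 with DPN. Both E2 libraries lay below the controls, and the PPT and DPN libraries were at least 3 times as high as the controls. AOX1 fell 1.36-fold with E2 (-0.45 ± 0.08; adjusted p = 5.07e-05) and rose 4.01-fold with PPT (2.00 ± 0.08; adjusted p = 2.02e-17) and 3.12-fold with DPN (1.64 ± 0.08; adjusted p = 1.26e-15). The monoamine oxidases MAOA (GeneID 4128, chrX:43654907-43746817) and MAOB (GeneID 4129, chrX:43766610-43882450), which degrade serotonin, dopamine and dietary amines, are neighbours on the X chromosome. MAOA stood at 26.3 and 28.5 CPM in the control libraries, 15.3 and 19.6 with E2, 61.6 and 64.3 with PPT and 53.2 and 51.4 with DPN. Its E2 libraries were below and the others above the controls. It fell 1.57-fold with E2 (adjusted p = 7.43e-06) and rose 2.3-fold with PPT (adjusted p = 8.56e-11) and 1.91-fold with DPN (adjusted p = 1.16e-08). MAOB stood at 132 and 123 CPM in the control libraries, 59.7 and 59.5 with E2, 97.1 and 94 with PPT and 128 and 132 with DPN. It fell by 1.10 ± 0.07 with E2 and 0.41 ± 0.07 with PPT, and its DPN libraries overlapped the controls, so the neighbours moved in opposite directions with PPT.

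Among the hydrolases CES1 (GeneID 1066), the main carboxylesterase of hepatocytes, stood at 325 and 335 CPM in the control libraries, 132 and 125 with E2, 246 and 251 with PPT and 398 and 401 with DPN. The groups did not overlap, with E2 lowest and DPN highest. It fell 2.57-fold with E2 (-1.36 ± 0.06; adjusted p = 3.93e-16) and 1.33-fold with PPT (-0.41 ± 0.06), and rose 1.21-fold with DPN (0.28 ± 0.06; adjusted p = 0.000565). As 45.3% of its 50-base windows also occur in the pseudogene CES1P1, its level is uncertain. CES2 (GeneID 8824), the intestinal carboxylesterase, stood at 84.7 and 84.1 CPM in the control libraries, 79.2 and 69.6 with E2, 99.4 and 103 with PPT and 82.2 and 82.6 with DPN. It rose by 0.26 ± 0.07 with PPT, and its fall with E2 (-0.18 ± 0.08) did not pass without either control or E2 replicate 2 (adjusted p 0.0725 to 0.360), with DESeq2 (0.0527), with upper-quartile scaling (0.0741) and with a filter of 1 CPM in 2 libraries (0.0683).

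EPHX2 (GeneID 2053), the soluble epoxide hydrolase, had 26.9 and 24.6 CPM in the control libraries, 16.6 and 15.2 with E2, 8.14 and 11.6 with PPT and 19.99 and 22.2 with DPN. Every treated library lay below both controls. It fell by 0.70 ± 0.13 on the log2 scale with E2 and 1.37 ± 0.13 with PPT, and the difference with DPN did not pass (-0.29 ± 0.13; adjusted p = 0.0634). AADAC (GeneID 13), a lipid and drug deacetylase, was the only one of the 34 tested genes that passed with none of the 3 compounds. It had 90 counts in all and stood at 1 and 0.237 CPM in the control libraries, 0.447 and 0.379 with E2, 0 and 0.335 with PPT and 0.312 and 0.481 with DPN.

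The arylamine acetyltransferases also fell with E2. NAT2 (GeneID 10), the hepatic form that inactivates isoniazid, had 29 counts in the control libraries and 1 with E2, and stood at 0.387 and 0.576 CPM in the control libraries, 0.0447 and 0 with E2, 0.366 and 0.435 with PPT and 1.04 and 1.48 with DPN. The E2 libraries were the lowest and the DPN libraries the highest. The ratio of E2 to control was 0.0453 with a 95% counting interval of 0.00111 to 0.273, and the adjusted p was 0.00147 in edgeR. Its rise with DPN (1.38 ± 0.55; adjusted p = 0.0399) did not pass with DESeq2 (0.0854), without the filter on low counts (0.0536), or without any 1 of the control, PPT or DPN libraries (0.0587 to 0.253). NAT1 (GeneID 9), the form found in most tissues, went from 3.87 and 3.69 CPM in controls to 2.01 and 2.32 with E2, 6.08 and 4.69 with PPT and 4.85 and 4.53 with DPN. It fell with E2 (-0.80 ± 0.24; adjusted p = 0.005), and its changes with PPT and DPN did not pass (0.51 ± 0.21 and 0.31 ± 0.21).

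Sorted by direction against the control at an adjusted p under 0.05, 5 genes were lower with E2 and higher with both PPT and DPN, namely CYP4F11, ADH4, ALDH1A1, AOX1 and MAOA. CYP4F2 and CES2 were lower with E2 and higher with PPT, NAT2 was lower with E2 and higher with DPN, and CES1 was lower with E2 and PPT and higher with DPN. In all, 11 genes passed with every compound. Of these, CYP2S1 and CYP4V2 were higher with all 3 compounds, CYP4F12 and ALDH2 were lower with all 3, and FMO5 was higher with E2 and DPN and lower with PPT. The 3 genes CYP4F3, CYP20A1 and ALDH3A2 and the electron donor CYB5A were higher with PPT and DPN and did not pass with E2. The share of all tested genes with each of these patterns was not counted, so none is shown to be particular to this set.

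The compounds, which shared one concentration and one duration of treatment, were also compared directly in 3 pairs, with p-values adjusted over all tested genes within each pair. E2 gave lower levels than each agonist for most of the 34 tested genes, but not for most P450s. Of the 15 tested P450s, 6 were lower and 4 higher with E2 than with PPT, and 6 lower and 5 higher than with DPN. Against PPT 6 of the 34 were higher with E2 and 20 lower, where 30.1% of all genes were higher and 32.1% lower, and 2 were called higher and 8 lower, where 7.85% and 3.03% were. Against DPN 7 were higher with E2 and 20 lower, where 32.6% and 31.3% of all genes were, and 2 were called higher and 9 lower, where 7.43% and 3.27% were. ADH4 was 17.1-fold lower with E2 than with PPT (-4.10 ± 0.09) and 16-fold lower than with DPN (-4.00 ± 0.09). CYP4F11 was 10.3-fold lower than with PPT and 8.5-fold lower than with DPN. Of the genes that follow, CYP26A1 met the filter on low counts only through its E2 libraries. The genes called higher with E2 than with PPT were CYP26A1 (3.83 ± 0.85) and FMO5 (2.45 ± 0.07), and those called higher than with DPN were CYP2D6 (2.16 ± 0.48) and CYP26A1 (2.45 ± 0.72), whose comparison with DPN did not pass without E2 replicate 2 or DPN replicate 2 (adjusted p 0.116 and 0.0931).

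**Figure D4:**
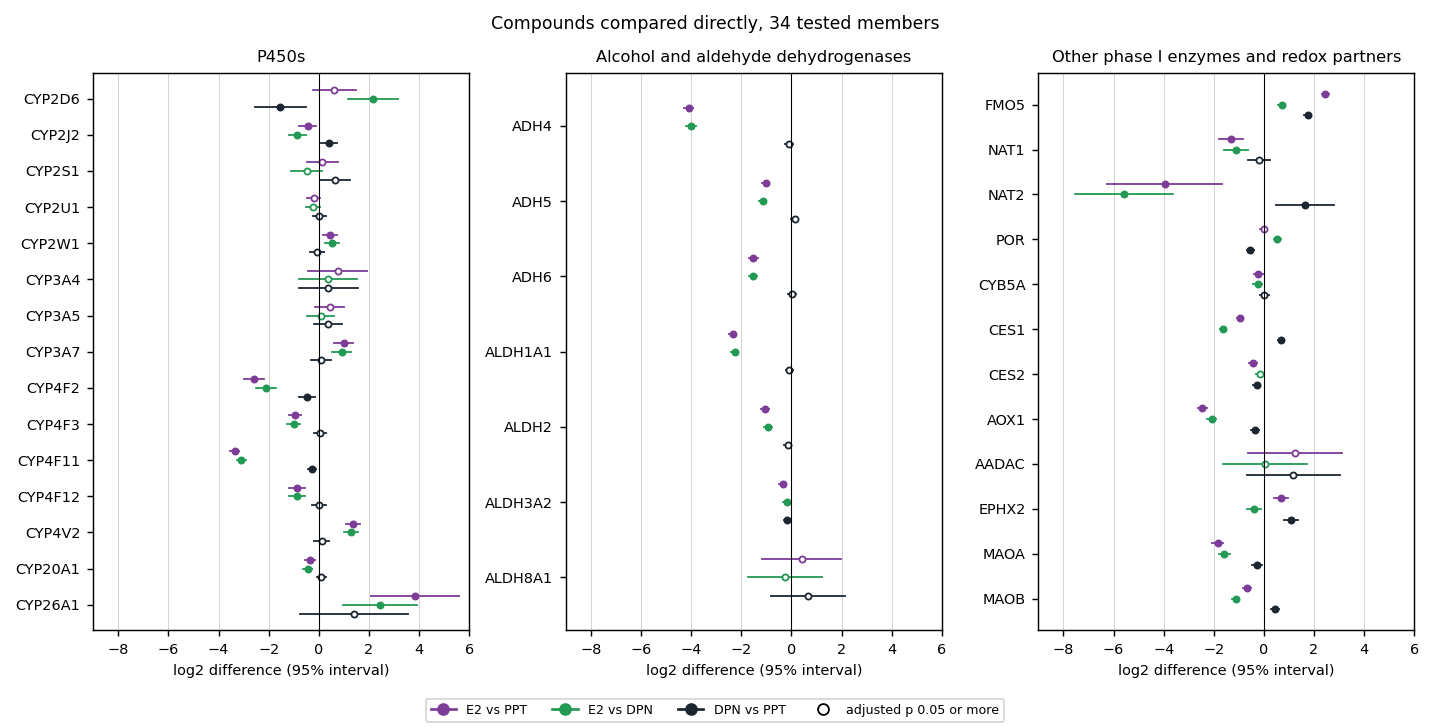
Log2 difference between compounds for the 34 tested genes, with 95% intervals, as E2 minus PPT, E2 minus DPN and DPN minus PPT, and open points for an adjusted p of 0.05 or more. ADH4, ALDH1A1 and CYP4F11 lie far left in both comparisons with E2 and near 0 in DPN minus PPT, where FMO5 at 1.74 lies far right.

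PPT and DPN differed from each other in fewer of these genes. With DPN 6 of the 34 were higher than with PPT, 8 were lower and 20 did not pass, where 19.1% of all genes were higher and 18.8% lower. The count lower was 5 without PPT replicate 2 or DPN replicate 2, 4 without DPN replicate 1 and 5 with DESeq2. FMO5 was the 1 gene called, 3.33-fold higher with DPN (1.74 ± 0.07; adjusted p = 2.65e-16), where 0.957% of all genes were called higher and 0.414% lower. EPHX2 was 2.13-fold higher with DPN (1.09 ± 0.14; adjusted p = 4.54e-07), CES1 1.61-fold higher (0.68 ± 0.06) and POR 1.47-fold lower (-0.55 ± 0.07). For ADH4, ADH6 and ALDH1A1 the comparison did not pass, and the 95% intervals of DPN minus PPT were -0.25 to 0.05, -0.14 to 0.16 and -0.20 to 0.04 on the log2 scale. CYP4F11 reached a level 1.21-fold lower under DPN than under PPT (-0.27 ± 0.08; adjusted p = 0.00583), which did not pass without DPN replicate 1 (0.0683).

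Phase I genes outside the 47 were read for comparison from lists drawn up by function, whose counts are to be read beside the shares of all tested genes that rose and fell, 30.8% and 31.8% with E2, 22.9% and 22.8% with PPT and 24.4% and 24.1% with DPN. Of 18 tested P450s of 33, 4 rose and 4 fell with E2, 5 rose and 5 fell with PPT, and 5 rose and 3 fell with DPN. CYP1A1, which oxidises polycyclic hydrocarbons and estradiol and is a known target of the aryl hydrocarbon receptor, stood at 3.77 and 3.39 CPM in the control libraries, 17.5 and 15.3 with E2, 9.45 and 9.44 with PPT and 12.1 and 9.72 with DPN, above the controls in every treated library. It was called with E2 (2.19 ± 0.16) and DPN (1.60 ± 0.16). CYP24A1, the vitamin D 24-hydroxylase, stood at 2.03 and 1.42 CPM in the control libraries, 2.95 and 1.89 with E2, 16.6 and 18.7 with PPT and 14.6 and 17.7 with DPN, and was called with PPT (3.35 ± 0.20) and DPN (3.22 ± 0.20). Thromboxane synthase, TBXAS1, was called with E2 (3.03 ± 0.36). With PPT the aromatase CYP19A1, which makes estrogens, was called higher (2.19 ± 0.12). Its raw counts were 420 in the controls, 898 with E2, 1811 with PPT and 730 with DPN. CYP8B1, the sterol 12-hydroxylase of bile acid synthesis, and CYP17A1, which makes androgen precursors, were called lower with PPT (-2.41 ± 0.25 and -4.45 ± 0.57), and CYP17A1 also with DPN (-1.58 ± 0.42). The raw counts of CYP17A1 were 144 in the controls, 42 with E2, 6 with PPT and 46 with DPN.

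Of 13 tested dehydrogenases of 16 outside the 47, 3 rose and 6 fell with E2, 3 rose and 6 fell with PPT, and 3 rose and 4 fell with DPN. ALDH1L2, the mitochondrial 10-formyltetrahydrofolate dehydrogenase, stood at 16.8 and 14.4 CPM in the control libraries, 7.07 and 6.78 with E2, 84.3 and 79.2 with PPT and 49.8 and 47.6 with DPN and was called with PPT (2.39 ± 0.10) and DPN (1.64 ± 0.10). ALDH1A2, another retinal dehydrogenase, was also called with E2, at 0.0322 and 0 CPM in controls against 0.447 and 0.379 CPM, on 34 counts in all 8 libraries. It met the filter on low counts only through E2 replicate 1 and DPN replicate 1, with 10 and 11 counts. Among 23 tested enzymes and redox partners of 38, 1 rose and 14 fell with E2, 6 rose and 7 fell with PPT, and 7 rose and 6 fell with DPN. Sulfite oxidase, SUOX, was called with E2 (-2.10 ± 0.12), and the paraoxonase PON1 with DPN (-3.43 ± 0.75) at under 2 CPM in every library.

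Of 33 tested regulators of phase I genes of 36, 13 rose and 14 fell with E2, 5 rose and 13 fell with PPT, and 6 rose and 13 fell with DPN. As shares these are 39.4% and 42.4% with E2, 15.2% and 39.4% with PPT, and 18.2% and 39.4% with DPN, beside the shares of all tested genes, 30.8% and 31.8%, 22.9% and 22.8%, and 24.4% and 24.1%. NR1I2, the pregnane X receptor, a xenobiotic sensor known to drive CYP3A4, stood at 11.7 and 11.7 CPM in the control libraries, 3.85 and 3.75 with E2, 10.6 and 11.8 with PPT and 11.8 and 14.1 with DPN, lowest in the E2 libraries (-1.62 ± 0.16; adjusted p = 1.79e-09). CYP3A4 was higher in these same E2 libraries, and no relation between the pair was tested. Called higher with E2 were the coactivator PPARGC1A (2.15 ± 0.08), the repressor NFIL3 (1.72 ± 0.07) and the liver factor ONECUT1 (2.46 ± 0.21). The circadian factor DBP was called lower with DPN (-1.67 ± 0.47).

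The heme genes were read because every P450 carries heme. Of 12 tested, 1 rose and 9 fell with E2, with a median log2 fold change of -0.68, and 7 rose and 3 fell with PPT, with a median of 0.41. With DPN 3 rose and 3 fell, 25% each, near the 24.4% and 24.1% of all tested genes. The shares with E2 were 8.33% higher and 75% lower, where 30.8% and 31.8% of all genes were, and with PPT 58.3% and 25%, where 22.9% and 22.8% were. ALAS1, the first and rate-limiting enzyme of heme synthesis, stood at 50.1 and 50.4 CPM in the control libraries, 41.8 and 38.8 with E2, 70.5 and 67 with PPT and 51 and 57.2 with DPN. It fell by 0.32 ± 0.09 on the log2 scale with E2 and rose by 0.45 ± 0.08 with PPT, and its change with DPN did not pass (0.11 ± 0.08). ALAS1 was named for its role, after its values were seen.

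**Figure D5:**
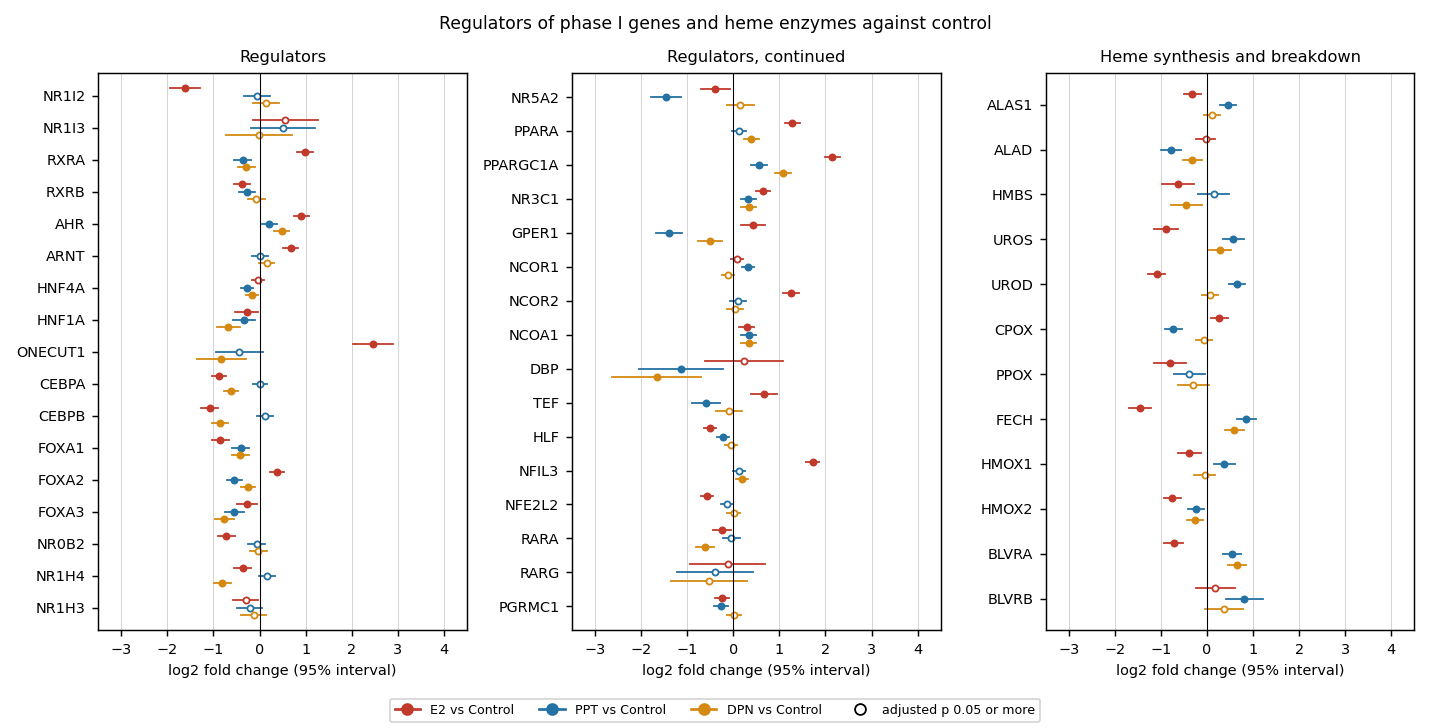
Log2 fold change against the control libraries for 33 regulators of phase I genes and 12 genes of heme synthesis and breakdown, with 95% intervals, coloured by compound, and open points for an adjusted p of 0.05 or more. NR1I2 at -1.62 lies far left and ONECUT1 at 2.46 and PPARGC1A at 2.15 far right with E2, and most heme genes lie left of 0 with E2.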

How the data were processed

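The deposited values are raw read counts per Entrez gene, made by the authors from strand-specific, single-end reads of 50 bases aligned to GRCh38.p10. The aligner, the counter, its annotation and its use of strand are not given in the sources used here. DESeq2 is named in the submitters' processing notes.

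From these counts, edgeR 4.0.16 (R 4.3.3) fitted all 8 libraries together, with trimmed mean of M-values scaling and a filter that kept 15460 genes (filterByExpr, minimum count 10, minimum total count 15). Each compound was compared with the control, and the compounds with each other, by the quasi-likelihood F test, with Benjamini-Hochberg adjustment over all tested genes. Standard errors are the log2 fold change over the square root of F, and their 95% intervals are not adjusted. A gene rose or fell at an adjusted p under 0.05 and was called at an adjusted p under 0.01 with a log2 fold change above 1.5 in size. All 8 libraries hold 25103160 to 29670814 counts.

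Levels per kilobase used the canonical transcript of GENCODE 44 (GRCh38), which also gave gene positions. Shared reads were gauged as the share of a transcript's 50-base windows found in another gene. Counting intervals are exact at 95%, and the floor is 3 counts over a group or over all libraries. Alternatives were DESeq2 1.42.0, other scalings and filters, a fit on the 4 libraries compared, the replicate block and leaving out each library.

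The 47 genes and all lists were chosen with earlier results of these data known. Genes were given in full where called or most abundant in their subgroup, and further members were described as well. Of each other list, genes called against the control were named, at most 4 per list and compound.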

Additional observations from a re-analysis of the deposited data

How the results depend on the processing

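The 34 tested phase I genes gave 136 comparisons that passed. Over all alternatives 2054 of 2170 repeats of these kept direction and side of the threshold, 116 no longer passed and 0 reversed. Comparisons of genes that the filter of 1 CPM in 2 libraries removed are not among these repeats. Under that filter 129 were kept and 1 no longer passed. Some repeats left out a library of a group that was not in the comparison. Under the study's thresholds the counts higher and lower were 3 and 6 for E2, 2 and 0 for PPT, 2 and 0 for DPN, 2 and 8 for E2 against PPT, 2 and 9 for E2 against DPN and 1 and 0 for DPN against PPT. With DESeq2 the count lower for E2 against PPT was 6 and that higher for E2 against DPN was 1, and the others were the same. Beside each 0, the counts under an unadjusted p of 0.05 with the same fold were 2, 0 and 1. The count lower with DPN was 3 and became 5 in the fit on 4 libraries, with upper-quartile or library size scaling and without the filter. The count lower with DPN than with PPT was 8 and became 5 with DESeq2. The causes were not tested. Leaving out 1 library gave 6 to 10 higher and 16 to 17 lower for E2, 11 to 16 and 5 to 8 for PPT, 14 to 18 and 2 to 6 for DPN, 6 to 8 and 19 to 20 for E2 against PPT, 6 to 9 and 18 to 20 for E2 against DPN, and 4 to 6 and 4 to 8 for DPN against PPT.

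Library size scaling shifted the median of all genes by -0.22 on the log2 scale for E2 against control, and under that scaling 8 members were higher and 20 lower with E2. Same-numbered libraries did not pair, with correlations of their deviations from -0.25 (Control with PPT) to 0.08. With the replicate block the counts were 9 and 17 for E2, 14 and 6 for PPT, 17 and 3 for DPN, 6 and 20 for E2 against PPT, 7 and 20 for E2 against DPN and 6 and 7 for DPN against PPT. Under it CYP2U1 and ALDH8A1 with PPT, NAT2 with DPN and ALDH3A2 for DPN against PPT did not pass (adjusted p 0.0517, 0.0576, 0.053 and 0.0538). With the PPT numbers crossed, an alternative chosen after seeing the data, those for PPT were 14 and 7. With 2 libraries per group, depth limits the 13 untested genes, none above 0.403 CPM in any group mean.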
